A study of Mus musculus with 6 samples.

Results

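The 9 genes described here belong to the visceral endoderm and were followed across 6 arrays of mouse embryos: Cubn, Amn, Lgmn, Slc39a5, Slc2a2, Hnf4a, Fga, Fgb and Fgg. They were chosen by name as uptake, fibrinogen and transcription factor genes of this tissue, with earlier results of these arrays known. All 9 of 9 were found among the 18193 genes of the array that had a probe set with a single gene symbol. Together they had 13 probe sets of 45101, and each gene was read from its brightest probe set over the 6 arrays. The embryos were taken whole at embryonic day 8.5 on a mixed C57BL6/129 background, with the sexes mixed. One group was Fz2+/+; Fz7-/- and is called the single knockout, and the other was Fz2-/-; Fz7-/- and is called the double knockout. Each had 3 arrays, numbered as in the sample titles, and both groups lacked Fz7, the Frizzled receptor gene Fzd7. The comparison therefore addresses what loss of Fzd2, a second receptor for Wnt ligands, added to loss of Fzd7. The labels do not give the number of embryos behind an array or how much yolk sac was left on each embryo.

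The visceral endoderm is the epithelium that covers the early embryo and lines the yolk sac. Before the placenta works, it takes up maternal proteins from its outer surface by endocytosis, digests them in lysosomes and passes nutrients inward. It also makes plasma proteins that the liver makes later, under transcription factors shared with liver cells, of which HNF4A is the best known. Cubilin and amnionless, the products of Cubn and Amn, form the uptake receptor complex. Legumain, from Lgmn, is a lysosomal protease, Slc39a5 encodes a zinc transporter and Slc2a2 the glucose transporter GLUT2. Fga, Fgb and Fgg encode the alpha, beta and gamma chains of fibrinogen, which assemble into a single clotting protein.

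The 3 fibrinogen genes lie next to each other on chromosome 3, in the order Fgg, Fga, Fgb among protein-coding genes of RefSeq's GRCm38.p6 annotation. Their upstream sequences are shown because the 3 genes are neighbours that encode the chains of a single protein, and because C/EBP factors are known regulators of liver genes. The RefSeq promoter table held all 9 genes with 12 start sites, and the 250 bases before each start were searched on both strands. The letters TTGCNNAA, a loose form of the C/EBP motif in which N is any base, are printed in capitals on either strand, so that they can appear as their reverse complement.
Fga upstream window, chr3:83025903-83026152, plus strand: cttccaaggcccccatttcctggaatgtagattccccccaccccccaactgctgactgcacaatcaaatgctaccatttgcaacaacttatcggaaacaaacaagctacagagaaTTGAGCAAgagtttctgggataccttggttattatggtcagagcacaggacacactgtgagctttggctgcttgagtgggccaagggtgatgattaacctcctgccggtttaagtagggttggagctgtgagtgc
Fgb upstream window, chr3:83049864-83050113, minus strand: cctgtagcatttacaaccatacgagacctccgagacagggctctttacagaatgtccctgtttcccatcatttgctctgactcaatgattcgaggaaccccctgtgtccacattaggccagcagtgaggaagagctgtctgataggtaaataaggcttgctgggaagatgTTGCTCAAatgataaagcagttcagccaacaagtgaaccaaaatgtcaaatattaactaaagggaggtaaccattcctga
Fgg upstream window, chr3:83007474-83007723, plus strand: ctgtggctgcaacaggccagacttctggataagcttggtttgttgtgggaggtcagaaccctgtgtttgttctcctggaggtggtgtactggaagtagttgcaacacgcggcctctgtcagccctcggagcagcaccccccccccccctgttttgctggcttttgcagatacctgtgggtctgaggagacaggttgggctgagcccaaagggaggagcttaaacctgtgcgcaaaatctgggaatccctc

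These letters were present in 4 of the 12 member windows, from Cubn, Slc39a5, Fga and Fgb, against 9.56% of 32851 windows of all genes. In Fga the match began 135 bases before the start and in Fgb 80 bases before it, and the Fgg window held no match. AGATAA, the motif of another endodermal family, occurred in 1 member window, from Hnf4a, against 9.99% of all windows. CAAAGTCCA, an HNF4 motif, and TGTTTAC, a FOXA motif, were in 0 of 12 windows, against 0.384% and 3.17% of all windows. No match of one motif overlapped a match of another. The letters were chosen after several motifs had been searched, so the shares carry no test and show no enrichment. These matches describe letters in the reference sequence, and binding was not measured.

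All 9 genes were highest in the same array, double knockout replicate 1, while the other 5 arrays lay close together. In replicate 1 they lay between 1.66 and 3.95 log2 units above the mean of the other 5 arrays, with a median of 2.48. The other 5 arrays spanned no more than 0.17 to 0.71 log2 units for any of the 9 genes. Over all genes the median of the same difference was -0.0062. The background was 25.3% of all genes highest in that array, 0.594% more than 1.5 log2 units above the other arrays and 1.16% more than 1. All 9 members passed both sizes. These shares describe 1 array and carry no test. In whole embryos, more cells of a type and more RNA per cell cannot be told apart.

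**Figure D1:**
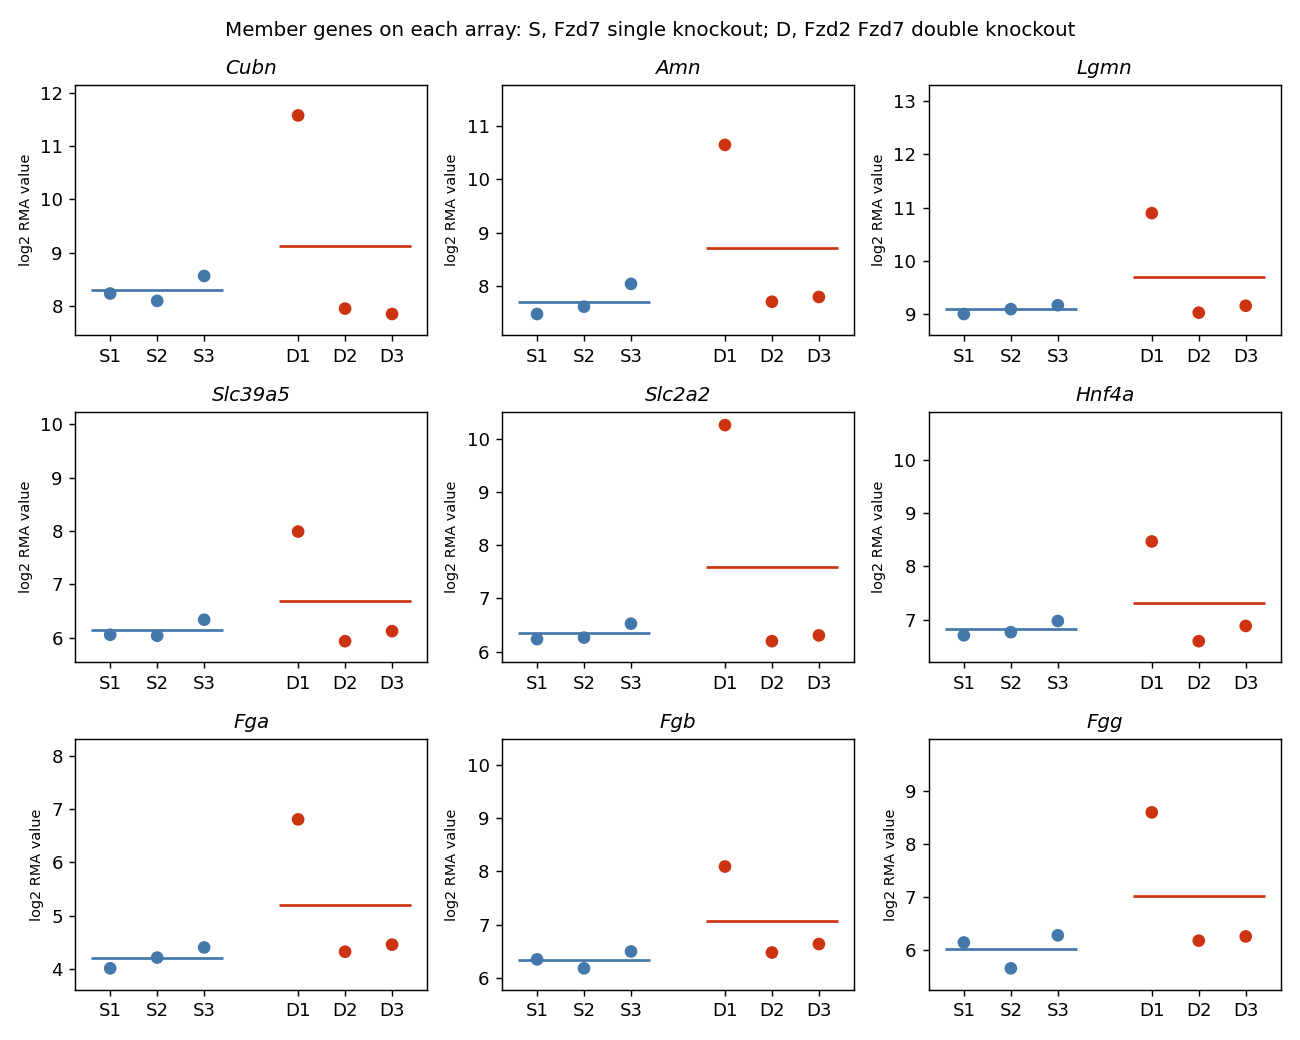
Deposited log2 RMA value (vertical axis) of the 9 genes on each array (horizontal axis: S1 to S3, single knockout; D1 to D3, double knockout), 1 point per array, with horizontal lines at group means; every panel spans the same number of log2 units. D1 is the highest array in all 9 panels, and the other 5 arrays span 0.17 to 0.71 log2 units.

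No member passed the test between the groups. With all 6 arrays the 9 differences, double knockout minus single knockout, were all positive with a median of 0.83 on the log2 scale, against -0.0093 over all genes and 46.2% of all genes positive. In limma, a linear model with moderated variances, 0 of the 9 passed an adjusted p of 0.05, and 0 had an unadjusted p under 0.05, the smallest being 0.126, against 4.96% of all genes. Over all genes 0.0055% were called, which is the single gene Fzd2, lower in the double knockout. The groups did not overlap for 0 of the 9, against 11.4% of all genes. All 9 of the 95% intervals of the difference held 0, and they reached from -1.51 to 3.78. Fzd2 itself gave 9.86, 9.99 and 10.01 in the single and 7.30, 7.69 and 7.63 in the double knockout (limma adjusted p = 0.00567). That call was lost when single knockout replicate 1, 2 or 3 or double knockout replicate 3 was left out, at limma adjusted p of 0.0831, 0.120, 0.109 and 0.0759.

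The array that set the members' group means also differed in the rest of its profile. It correlated with the others at 0.986 to 0.990 across genes, against 0.997 to 0.998 among those 5, and 479 genes lay over 1 log2 unit from the mean of the rest, against 18 to 37 for any other array. Array medians were 5.794 to 5.816. The differences below between the groups are therefore given with and without double knockout replicate 1. Without it, and so with 2 double knockout arrays, the members split into 5 positive and 4 negative differences with a median of 0.0045, against -0.0067 over all genes and 46.7% positive. Limma then called 0 of the 9 and 0.0055% of all genes, and 1 member, Cubn, had an unadjusted p under 0.05, against 6.67% of all genes.

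**Figure D2:**
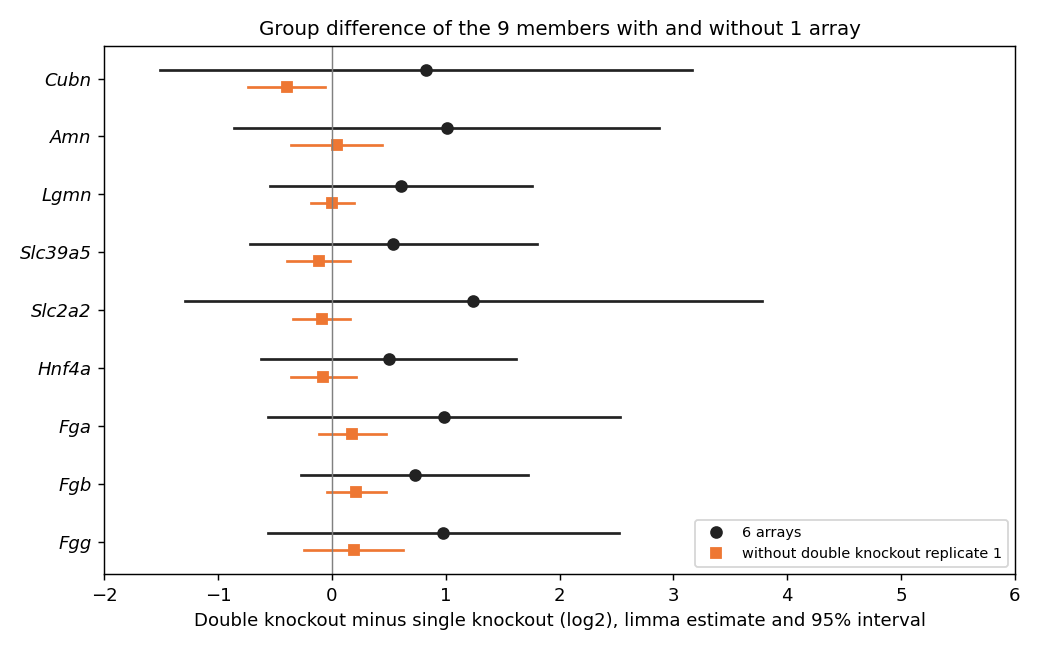
Double knockout minus single knockout on the log2 scale (horizontal axis) for the 9 genes, as the limma estimate with its 95% interval, from all 6 arrays (black circles) and without double knockout replicate 1 (orange squares). All black intervals hold 0, and of the orange ones the Cubn interval, from -0.73 to -0.063, lies below 0.

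Cubn, the large ligand-binding subunit of the uptake receptor, had values of 8.23, 8.10 and 8.56 in the single knockout and of 11.58, 7.95 and 7.85 in the double knockout, each in the order of replicates 1 to 3, as in all values below. Replicate 1 of the double knockout was 10.8-fold above the mean of the other 5 arrays, and the other double knockout arrays were the lowest of the 6. The group difference was 0.83 (SE 0.97, n = 3 per group, limma adjusted p = 0.902). Without that array it was -0.40 (SE 0.14, 95% interval -0.73 to -0.063), or 75.9% of the single knockout level, with a limma adjusted p of 0.707 and an unadjusted p of 0.027. Groups then did not overlap, as for 12.3% of all genes on the lower side. The dimmer Cubn probe set read 6.75, 6.62 and 7.08 in the single and 10.31, 6.61 and 6.39 in the double knockout. It put the same arrays highest and lowest, with a difference of -0.32 for double knockout replicates 2 and 3.

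Amn, which anchors cubilin in the membrane, read 7.47, 7.61 and 8.04 in the single and 10.65, 7.70 and 7.79 in the double knockout. Replicate 1 of the double knockout was 7.59-fold above the mean of the others, while replicates 2 and 3 lay inside the single knockout range. The difference was 1.01 (SE 0.77, limma adjusted p = 0.872), and 0.041 (SE 0.16, 95% interval -0.36 to 0.44) without replicate 1. Amn thus did not show the lower values that Cubn had in double knockout replicates 2 and 3, although a test of the difference between these genes was not run.

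Lgmn read 9.004, 9.10 and 9.17 in the single and 10.90, 9.03 and 9.16 in the double knockout. It had the narrowest spread of the 9 genes outside replicate 1, 0.17 log2 units over 5 arrays, and was 3.50-fold higher in that array. The difference was 0.61 (SE 0.48, limma adjusted p = 0.873), and 0.0045 (SE 0.077, 95% interval -0.18 to 0.19) without replicate 1. That interval is the tightest limit on any member in the remaining arrays.

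The zinc transporter gene Slc39a5 read 6.05, 6.03 and 6.33 in the single and 7.99, 5.93 and 6.12 in the double knockout. Its level in replicate 1 was 3.72-fold above the other arrays, and the groups overlapped. The difference was 0.54 (SE 0.52, limma adjusted p = 0.883), and -0.11 (SE 0.11) without that array. Slc2a2 had the largest difference between replicate 1 and the rest, at 15.4-fold. It read 6.24, 6.26 and 6.53 in the single and 10.25, 6.20 and 6.31 in the double knockout. Its difference of 1.24 (SE 1.05, limma adjusted p = 0.877) became -0.090 (SE 0.10, 95% interval -0.34 to 0.16) without that array.

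Hnf4a read 6.71, 6.76 and 6.97 in the single and 8.47, 6.60 and 6.88 in the double knockout on its brightest probe set. Replicate 1 of the double knockout was 3.21-fold above the other arrays, and the difference was 0.50 (SE 0.47, limma adjusted p = 0.880). Without that array it was -0.077 (SE 0.12). The 4 Hnf4a probe sets did not respond alike. The third by brightness read 3.83, 3.72 and 3.95 in the single and 6.64, 4.01 and 4.01 in the double knockout, a 6.64-fold higher value in replicate 1. The second read 5.43, 5.79 and 5.47 against 5.70, 5.27 and 5.52, so that its highest array was single knockout replicate 2. The dimmest read 4.15, 4.49 and 4.15 against 4.98, 4.16 and 4.01, with replicate 1 highest by a smaller amount. The sources used here do not say where in the gene these probe sets lie.

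**Figure D3:**
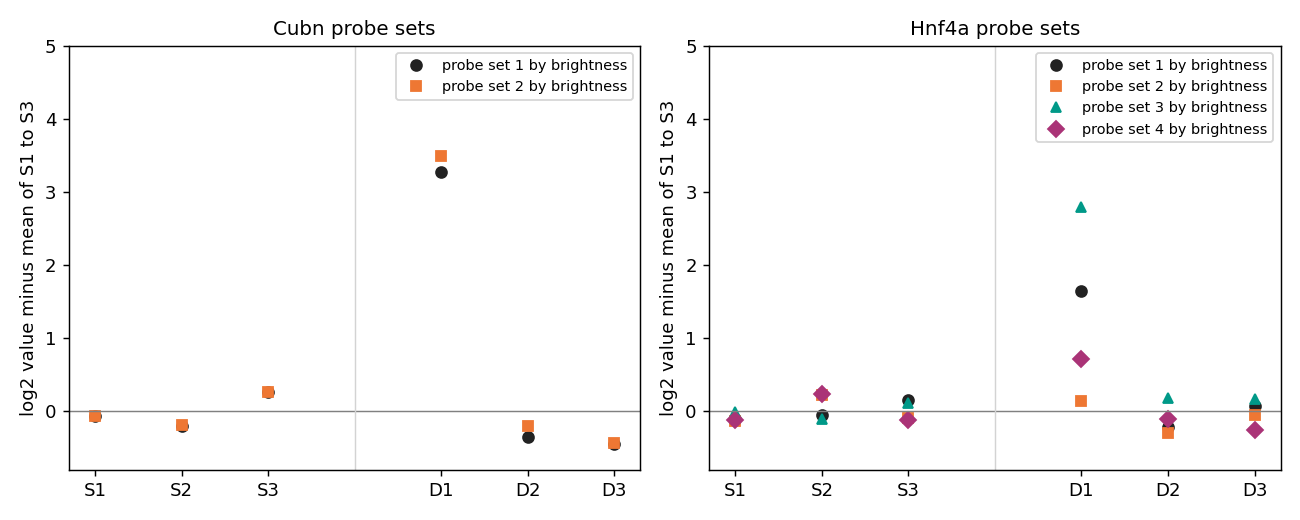
Log2 value minus the single knockout mean of the same probe set (vertical axis) on each array (S1 to S3, single knockout; D1 to D3, double knockout) for the 2 Cubn and the 4 Hnf4a probe sets, numbered by brightness. Both Cubn probe sets lie over 3 log2 units above the single knockout mean in D1 and below 0 in D2 and D3, whereas the Hnf4a probe sets spread from near 0 to over 2.5 in D1.

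The fibrinogen chain genes shared a high value in replicate 1 and lay slightly above the single knockout mean in the remaining double knockout arrays. Fga read 4.01, 4.21 and 4.40 in the single and 6.81, 4.32 and 4.46 in the double knockout, and it was dim in the 5 arrays outside replicate 1. Fgb read 6.35, 6.18 and 6.50 against 8.09, 6.48 and 6.64. Fgg read 6.15, 5.66 and 6.29 against 8.59, 6.18 and 6.26. In each of the 3 genes at least 1 double knockout array lay within the single knockout range. Replicate 1 was 5.76-fold, 3.17-fold and 5.59-fold above the other arrays for Fga, Fgb and Fgg.

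The fibrinogen differences between the groups were 0.99 (SE 0.64) for Fga, 0.73 (SE 0.41) for Fgb and 0.98 (SE 0.64) for Fgg, each with a limma adjusted p of 0.872. Without replicate 1 they were 0.18 (SE 0.12), 0.21 (SE 0.11) and 0.19 (SE 0.18), with limma adjusted p of 0.849, 0.784 and 0.905. Their 95% intervals reached from -0.11 to 0.47, from -0.044 to 0.47 and from -0.24 to 0.62. The mean over the 3 chains was 0.13 and 0.26 above the single knockout mean in double knockout replicates 2 and 3. Over the other 6 members it was -0.16 and -0.047. Single knockout replicate 3 was 0.20 above that mean for both sets, so these offsets are of the size of the spread between control arrays.

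Exact two-sided permutation tests of 3 against 3 arrays gave p from 0.2 to 1.0 for the 9 genes, where the smallest possible p is 0.1. Below replicate 1 of the double knockout, the arrays had an order that most members shared. Single knockout replicate 3 was the highest of its group for 9 of 9 genes and the second highest of all 6 arrays for 7, the exceptions being Fga and Fgb, where double knockout replicate 3 was second. Double knockout replicate 3 was above replicate 2 for 8 of 9, the exception being Cubn. These steps were small beside the 1.45 to 3.73 log2 units between double knockout replicate 1 and the next array.

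Markers of the tissue itself were checked in the same arrays, with the lists written while earlier results of these data were known. Of 12 carrier protein genes of the yolk sac endoderm, 11 were measured, and 10 of these lay over 1 log2 unit higher in double knockout replicate 1 than in the other arrays. Afp, the fetal carrier alpha-fetoprotein, read 9.72, 10.08 and 10.35 in the single and 12.44, 9.83 and 9.80 in the double knockout. The list mean was 8.42 to 8.75 in the single knockout and 10.95, 8.48 and 8.48 in the double knockout. The exception was Alb, serum albumin, which stayed between 4.18 and 4.75 in all 6 arrays. Alb was dim beside the median gene brightness of 7.10, so its flat reading cannot show whether it followed the other carrier genes. Visceral endoderm markers were thus present in every array, with Afp at 9.72 or more. Apoe and Apoa2, the lipoprotein genes with the smallest unadjusted p of the list, differed by 0.84 (SE 0.50) and 0.81 (SE 0.51), and 0 of 11 passed limma. Without replicate 1 they differed by 0.21 (SE 0.090) and 0.17 (SE 0.097), and the list median went from 0.82 to -0.065.

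Endocytic and lysosomal genes moved less than the members. Of 22 genes 3 were over 1 log2 unit higher in double knockout replicate 1, the median difference there was 0.21, and 0 were called between the groups, 15 being positive. The 3 were Ctsh and Ctsb, which encode lysosomal cathepsins, and Dab2, an adaptor that brings uptake receptors into coated pits, at 2.51, 1.12 and 1.21. Lrp2, which encodes megalin, the partner of cubilin in protein uptake, read 8.19, 7.97 and 8.13 in the single and 9.12, 8.26 and 8.43 in the double knockout. Its groups did not overlap, as for 4.85% of all genes on the higher side. The difference was 0.51 (SE 0.22, limma adjusted p = 0.872), and 0.25 (SE 0.092, limma adjusted p = 0.725) without replicate 1. Lrp2 and Cubn had differences of opposite sign in that setting, and the contrast between them was not tested. Npc1, a lysosomal cholesterol transporter gene, differed by 0.25 (SE 0.13), and by 0.11 (SE 0.073) without replicate 1. General endosome genes such as Rab5a and Cltc lay -0.046 and 0.21 from the other arrays in replicate 1.

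Transporter genes shared the members' pattern in part. Of 15 measured, 8 were over 1 log2 unit higher in double knockout replicate 1, with a median of 1.19 there, 14 were positive between the groups and 0 were called. Among them were the zinc importer genes Slc39a4 and Slc39a8, at 1.84 and 1.34, the amino acid transporter gene Slc7a9 at 2.64, and Mttp, which loads lipid onto lipoproteins, at 2.28. The widely expressed glucose transporter genes Slc2a1 and Slc2a3 lay 0.22 and 0.27 higher there, against 3.95 for Slc2a2. Slc30a1, a zinc exporter gene, and Slc39a8 had the smallest unadjusted p of the list and differed between the groups by 0.22 (SE 0.11) and 0.52 (SE 0.35). Without replicate 1 these were 0.11 (SE 0.066) and 0.088 (SE 0.095), the list median was 0.023 and 8 of 15 were positive.

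Transcription factors of liver and endoderm did not all follow Hnf4a. In double knockout replicate 1, 2 of 14 measured lay over 1 log2 unit higher, Foxa3 at 1.58 and the X-linked homeobox gene Rhox5 at 2.11, and the median was 0.19. Foxa2 and Gata6, which act in many endoderm cells, lay 0.37 and 0.36 higher. Hnf4g, the relative of Hnf4a, read 4.16 to 4.34 in all 6 arrays, and the C/EBP gene Cebpa read 4.56 to 4.78. Both were dim beside the median gene brightness of 7.10, so their flat readings cannot show whether they followed Hnf4a. The same limit holds for Onecut1, Nr5a2, Nr0b2, Nr1h4 and Eomes, also among the 14, which read 3.63 to 5.42 over the 6 arrays. Between the groups 10 of 14 were positive and 0 were called. The smallest unadjusted p values belonged to Sox17 (0.47, SE 0.18) and Foxa1 (0.26, SE 0.098), both endoderm regulators, with a limma adjusted p of 0.872. Without replicate 1 they differed by 0.27 (SE 0.093) and 0.24 (SE 0.11).

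Other plasma protein genes of the liver were mostly dim. Of 19 measured, 6 lay over 1 log2 unit higher in double knockout replicate 1, and 0 were called between the groups. These were F2, F10, Serpinc1, Serpinf2, Plg and Ambp, which include prothrombin, antithrombin and plasminogen, at 1.15 to 1.74. Plg, the precursor of the enzyme that dissolves fibrin, read 6.16, 6.13 and 6.15 in the single and 7.44, 6.57 and 6.43 in the double knockout. All 3 double knockout arrays were above all single knockout arrays, as for 4.85% of all genes. Plg was named because its unadjusted limma p was the smallest of the list. The difference was 0.67 (SE 0.25, limma adjusted p = 0.872), and 0.36 (SE 0.066, limma adjusted p = 0.677) without replicate 1. Vtn, which encodes vitronectin, differed by 0.15 (SE 0.062), and by 0.12 (SE 0.064) without replicate 1. F9, F11, F13b and Itih2 stayed within 0.10 log2 units of the other arrays in replicate 1.

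**Figure D4:**
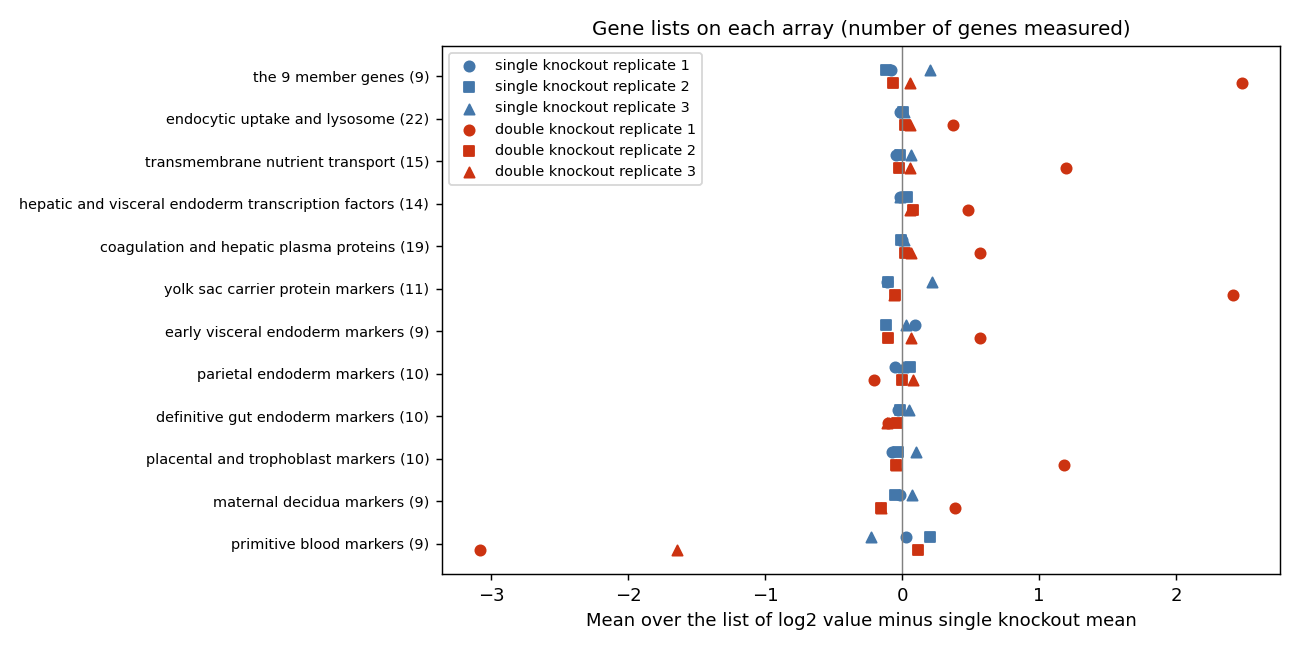
Mean over each gene list of the log2 value minus the single knockout mean (horizontal axis), 1 point per array, blue for single and red for double knockout, with replicates 1, 2 and 3 as circles, squares and triangles. The 9 member genes and the yolk sac carrier genes lie at 2.48 and 2.41 in double knockout replicate 1, and primitive blood genes lie at -3.08 there and at -1.65 in replicate 3.

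Markers of other tissues moved in the same array, and their part in the members' values was not tested. Of 10 placental and trophoblast genes measured, 3 were over 1 log2 unit higher in double knockout replicate 1. Those were Prl5a1, Prl7a1 and Cts7, at 3.44, 3.67 and 3.71, and list means were 4.39 to 4.57 in the single and 5.65, 4.42 and 4.43 in the double knockout. Prl8a9 and Hand1 lay 0.63 and 0.32 higher in that array, and 6 of the 10 genes were highest in it. The trophoblast markers Tpbpa, Ctsj and Ascl2 lay within 0.01 of the other arrays there. They read 4.26 to 4.67, 2.99 to 3.20 and 5.41 to 5.75 over the 6 arrays. All were dim beside the median gene brightness of 7.10, so their flat readings cannot show whether they followed Prl5a1. Of 9 decidua genes, 1 was over 1 log2 unit higher, the decidual prolactin gene Prl8a2, which read 8.26, 8.32 and 9.63 in the single and 11.14, 8.17 and 7.75 in the double knockout. Pgr and Htra3 lay 0.99 and 0.85 higher in double knockout replicate 1, where 4 of the 9 genes were highest and 3 lowest. Decidua list means were 7.50 to 7.62 in the single and 7.94, 7.39 and 7.40 in the double knockout. Parietal endoderm genes were over 1 log2 unit higher for 0 of 10 and lower for 1, Nid1 at -1.07. Definitive gut endoderm genes were higher for 2 of 10 and lower for 1, with a median of -0.17.

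Primitive blood genes went the other way, with 4 of 9 measured more than 1 log2 unit lower in double knockout replicate 1, against 1.47% of all genes. The globin gene Hbb-y lay -8.40 from the other arrays there, the lowest of all genes tested, and Hbb-bh1 and Hba-x lay -6.67 and -6.60. Hbb-y read 13.07, 13.53 and 12.85 in the single and 4.05, 13.51 and 9.28 in the double knockout. Only Hba-a1, at 0.078, was highest in that array, but it was dim and flat throughout, at 4.22 to 4.32. List means of the primitive blood genes were 8.53 to 8.95 in the single and 5.67, 8.87 and 7.11 in the double knockout. They were low in replicate 3 of the double knockout as well, where the 9 member genes were 0.054 above the single knockout mean. No array value is 0 on this scale, so absence of a marker cannot be read from it.

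Genes most like the 9 members over the 6 arrays were found by Pearson correlation with the members' mean deviation. The ranking covered 716 other genes that spanned over 1 log2 unit, after predicted and cDNA-clone genes had been left out by name. The top 5 were S100g, which encodes the calcium-binding protein calbindin-D9k, the organic anion transporter gene Slco4c1, the placental prolactin gene Prl5a1, Foxa3 and the secreted phospholipase gene Pla2g12b. Their r ran from 0.9979 to 0.9992 over 6 arrays, with Spearman's rho of 0.83 to 1.0. The 6 points share the single high array, and no p is given. Over the 4 arrays left after removing double knockout replicate 1 and single knockout replicate 3, the arrays farthest from the median, r was 0.70 to 0.93. Those 4 arrays were part of the ranking that picked the genes, so this r is not a separate check of the likeness. S100g read 6.72, 6.71 and 7.04 in the single and 9.34, 6.65 and 6.85 in the double knockout, a level 5.85-fold higher in replicate 1 than in the rest.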

How the data were processed

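Total RNA of 6 whole-embryo samples was labelled with biotin and read on single-colour Affymetrix arrays, per the labels' protocols. The authors deposited log2 values of 45101 probe sets, made with RMA (background correction, normalization between arrays, probe summary) per the submitters' processing notes. The sources used here do not state its version. RMA compresses differences near background, so the folds of dim genes are understated. Precision is limited by the number of arrays. Of the probe sets, 34945 had 1 gene symbol, 932 several and 9160 none listed, and 64 were controls. Gene IDs of all 9 members carried the same symbol in RefSeq.

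The groups were compared with limma 3.58.1 in R 4.3.3 (lmFit and eBayes; two-sided p-values, adjusted by Benjamini-Hochberg over 18193 genes, threshold 0.05). The labels do not say if the replicates are separate litters. The spread behind the p-values may be technical. A value of 10.8-fold is 2 to the power of a log2 difference.

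The members and gene lists were chosen with earlier results of these data known. Named were the members, Fzd2, the 2 genes of each of the 11 other lists with the smallest unadjusted p and the 5 most alike genes. The choice of other list genes and of the promoters shown came after their values had been seen. The motif letters were also chosen after several had been searched, and some of the genes and motifs considered are not reported here.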

Additional observations from a re-analysis of the deposited data

How the results depend on the processing

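No member passed limma under any alternative run, and the smallest adjusted p of a member was 0.707. The block, the thresholds, the tested set, the brightness filter and the variance moderation leave a member's difference as it is by construction. Besides the runs without a single array, 5 differences turned: Cubn with array weights (-0.071) and, with probe sets averaged and double knockout replicate 1 left out, Cubn (-0.36), Slc39a5 (-0.11), Slc2a2 (-0.090) and Hnf4a (-0.064). Array weights gave that array 0.281, the lowest of the 6, and left positive differences of 0.049 for Slc39a5, 0.064 for Hnf4a, 0.16 for Lgmn, 0.27 for Slc2a2 and Amn, and 0.35 to 0.41 for the fibrinogen genes. Leaving out each array in turn gave -0.40 to 1.47 for Cubn, -0.11 to 0.91 for Slc39a5, -0.090 to 1.94 for Slc2a2, -0.077 to 0.86 for Hnf4a, 0.041 to 1.51 for Amn, 0.0045 to 0.94 for Lgmn, 0.18 to 1.42 for Fga, 0.21 to 1.02 for Fgb and 0.19 to 1.39 for Fgg. The lowest value of each came without double knockout replicate 1. The count of called genes, 1 in the comparison as reported, was 0 with probe sets averaged and 0 to 1 without single arrays; the cause was not tested.

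With the replicate number as a block, 1 gene was again called and 0 members, with member adjusted p of 0.855 to 0.893. Deviations of same-numbered arrays from their group means correlated at 0.094, -0.037 and -0.13. The best correlations with an array of a different number were -0.015, 0.275 and 0.054, in the same order. With so few arrays per group, these values cannot decide whether the numbers pair the samples. Leaving out genes below the median brightness of 7.10 removed 6 of the 9 members, all but Cubn, Amn and Lgmn.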

Other observations

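Genes of the earlier visceral endoderm, which covers the embryo before the yolk sac forms, gave a mixed picture. Of 9 measured, 3 lay over 1 log2 unit higher in double knockout replicate 1, namely Spink1 at 1.92, Dpp4 at 1.19 and Cited1 at 1.09. Cer1 and Ihh lay 0.87 and 0.79 higher, and Fgf8 and Otx2, which are also expressed in embryonic tissue, lay -0.41 and -0.58 from the other arrays. Between the groups Spink1 and Fgf8, with the smallest unadjusted p of this list, differed by 0.85 (SE 0.51) and -0.19 (SE 0.12), and 0 of 9 passed limma. Without replicate 1 they differed by 0.27 (SE 0.23) and -0.066 (SE 0.078).

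Among the parietal and gut endoderm lists, Thbd and Fst differed by 0.37 (SE 0.12) and 0.22 (SE 0.094), and the epithelial genes Krt19 and Cldn4 by -0.31 (SE 0.13) and -0.32 (SE 0.14). Without replicate 1 these 4 differed by 0.28, 0.17, -0.24 and -0.16. Hand1 differed by 0.13, Wnt4 by -0.23, Cryab by -0.26, Klf1 by -1.20 and Gata1 by -0.45, and none of these genes passed limma (adjusted p = 0.872). Without replicate 1 these 5 differed by 0.033, -0.28, -0.17, -0.88 and -0.26. Nepn, a marker of the gut tube picked after its values were seen, lay -2.14 from the other arrays in double knockout replicate 1.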
